A study of Homo sapiens with 4 samples.

Results

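The chromosome 19 miRNA cluster is a run of 46 annotated hairpins, all on the plus strand at chr19:53666679-53762430 (GRCh38, GENCODE 29), a stretch of 95.8 kb. Its members here are 40 of the 2366 human miRNA rows of the count tables. They were chosen by the number in the miRNA name (miR-498, miR-512, miR-515 through miR-527, miR-1283 and miR-1323, with any letter or arm), and rows were found for 16 of those 17 numbers. The name rule reads no count, but the cluster itself was selected on its behaviour in the knockdown comparison, with those results known. The values below are therefore a description of that comparison, and the counts of calls support nothing beyond it. Of the 40 members, 36 matched a RefSeq mature name, and miR-498, miR-518f-3p, miR-520e and miR-522-3p were placed by their hairpin alone.

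miRNAs are cut from hairpins in primary transcripts by the Microprocessor, a nuclease complex of DROSHA and DGCR8, and then by Dicer. ERH is a partner protein of the Microprocessor, and by its title the study asks how ERH helps suboptimal hairpins that lie beside other hairpins. The chromosome 19 cluster is specific to primates, is imprinted with expression from the paternal copy, and is known for its high expression in placental trophoblast. Its hairpins arose by repeated duplication, so many mature sequences differ by few bases. Several 3p arms carry the seed of the miR-302 and miR-372 family of embryonic stem cells, and others carry that of the miR-17 family.

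The libraries hold small RNA from K562-dCas9-KRAB cells, a human erythroleukaemia line (derived from chronic myeloid leukaemia) that expresses an inactive Cas9 fused to a repressor domain. Each of 2 guide RNAs against ERH (gRNA1 and gRNA2) was in a polyclonal, doxycycline-inducible line of its own. ERH knockdown cells received 0.05 µg/ml doxycycline and control cells of the same line received none, both for 5 days, which gave 2 libraries per group and 1 per line and condition. Cells given doxycycline without a guide RNA against ERH were not analysed here, so doxycycline and ERH knockdown cannot be told apart. Small-RNA libraries do not measure ERH mRNA, so how far ERH fell is not shown by them.

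The libraries held 1430434 to 2476700 human miRNA reads, and a member without a read could still have had 3 by counting error alone. In CPM, the reads scaled to a common total after TMM has set the bulk of miRNAs equal between libraries, that limit was 1.10 to 2.38. Known miRNAs of K562 cells were present: miR-451a, miR-144-3p, miR-486-5p and miR-126-3p together made 52500 and 52600 CPM after knockdown and 55900 and 58200 CPM in controls. Singly they moved in different ways, with log2 fold changes of 0.74 for miR-144-3p, -0.48 for miR-451a, -0.27 for miR-126-3p and -0.05 for miR-486-5p. Outside the cluster, the 8 rows of the embryonic miR-302a to miR-302d and miR-367 held 1 read in each of 2 libraries. Of these rows, 6 were at 0 throughout, and miR-302a-3p and miR-302b-3p had no row. miR-373-3p, of the miR-372 family, was present at 57.7 and 58.8 CPM after knockdown and 78.5 and 77.2 CPM in controls. The 4 rows of markers of liver, neuron, muscle and squamous epithelium held 20 and 16 reads in knockdown libraries against 4 and 5 in controls. Summed, these few reads moved the same way as the cluster, through miR-1-3p (8 and 6 against 1 and 1) and miR-205-5p (7 and 7 against 2 and 0). miR-122-5p had 5 and 2 reads against 1 and 4, and miR-124-3p 0 and 1 against 0 and 0. The part of these reads in the result was not tested.

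Mature sequences of the members the results turn on are given first, from RefSeq (GRCh38.p14), grouped by seed. The seed, bases 2 to 8 from the 5′ end, is in capitals and pairs with target mRNAs. The 3p arms with the AAGUGCU seed are shown with miR-373-3p of the neighbouring cluster, which has the same seed.
miR-520a-3p: aAAGUGCUucccuuuggacugu
miR-520d-3p: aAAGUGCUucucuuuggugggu
miR-373-3p: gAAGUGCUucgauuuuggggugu
The AAAGUGC seed of miR-519d-3p is that of miR-17-5p, miR-20a-5p and miR-93-5p. The AAAGCGC seed of miR-518b, miR-518c-3p and miR-518a-3p was found in no RefSeq miRNA outside the cluster. Not all miR-518 arms have it, and that of miR-518e-3p is AAGCGCU.
miR-519d-3p: cAAAGUGCcucccuuuagagug
miR-518b: cAAAGCGCuccccuuuagaggu
miR-518c-3p: cAAAGCGCuucucuuuagagugu
miR-518a-3p: gAAAGCGCuucccuuugcugga
Some 5p arms, listed next, form pairs of members that share a seed with each other only. The remaining 5p arms have seeds that no other member shares.
miR-515-5p: uUCUCCAAaagaaagcacuuucug
miR-519e-5p: uUCUCCAAaagggagcacuuuc
miR-520a-5p: cUCCAGAGggaaguacuuucu
miR-525-5p: cUCCAGAGggaugcacuuucu
miR-520d-5p: cUACAAAGggaagcccuuuc
miR-524-5p: cUACAAAGggaagcacuuucuc
The members listed last, from near the ends of the cluster, have seeds that no other member shares. Members between the ends, such as miR-526b-5p and miR-521, also have unshared seeds.
miR-512-3p: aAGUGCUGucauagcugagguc
miR-1323: uCAAAACUgaggggcauuuucu
miR-516a-5p: uUCUCGAGgaaagaagcacuuuc

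The letters AAGUGC were in 8 of the 17 members with a RefSeq sequence and a 3p name (47.1%), in 0 of 15 with a 5p name, and in 1.65% of the 2370 RefSeq mature miRNAs. The letters GCACUUU, which pair with AAAGUGC across the hairpin stem, were in 10 of the 15 5p arms (66.7%) and in 0.844% of all mature miRNAs. Both were searched on the miRNA strand at any position, and a match describes letters and no site. The 36 members carried 26 distinct seeds, and no member shared its whole mature sequence with another RefSeq name. Another 29 RefSeq mature names of these hairpins were not analysed here, 16 of them with a sequence that another name shares.

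The 40 rows together gave few reads, and more of them after knockdown with both guide RNAs. Mature miRNAs of the cluster that head no row are not in this sum. Summed over the 40 members there were 1482 reads after knockdown against 396 in the control with guide RNA 1, and 1379 against 572 with guide RNA 2. That was 0.0665% and 0.0576% of all miRNA reads after knockdown and 0.0277% and 0.0231% in controls. On the TMM scale the sums were 563 and 503 CPM after knockdown and 314 and 276 CPM in controls, so the groups did not overlap. Knockdown was 1.79 times control with guide RNA 1 and 1.82 times with guide RNA 2, a mean log2 ratio of 0.85 ± 0.02 (SD, n = 2 guide RNAs). The members were chosen with these values known, and no test was run on their sum.

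The size of that difference depends on how libraries are made comparable. With library size alone the mean log2 ratio of the sum was 1.29, and with the spiked-in RNAs as the reference it was 1.55. A change of scaling moves the fold changes of all miRNAs by nearly the same amount. Those scalings raised the median of all tested miRNAs by 0.44 and 0.68 on the log2 scale. Relative to that median the cluster therefore had to stand about as far up. All 27 tested members had fold changes above 0 under each scaling, which follows from the main fit and adds no support to it. With library size alone 25 of them were called higher, when 273 of all 464 miRNAs were called higher and 41 lower. With spike-in scaling 24 were, when 186 of all 464 were called higher and 8 lower. Between control libraries the members' shares of their summed reads were as alike as counting noise allows. The chi-square per degree of freedom was 1.08 over 24 members with at least 5 expected reads, and 0.864 over 32 between knockdown libraries. It compares the mix of members only and leaves their summed level free to differ.

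**Figure D1:**
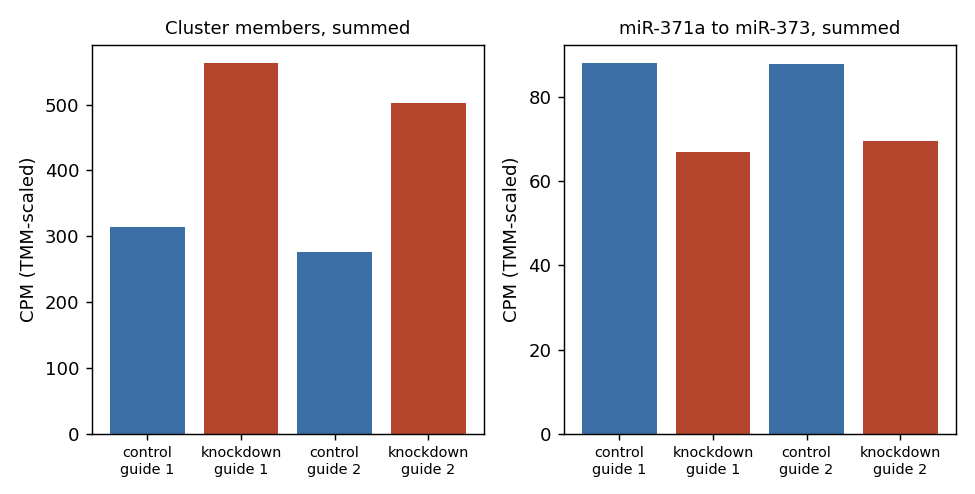
Summed CPM (TMM-scaled) in each library, with controls in blue and ERH knockdown in red, 1 library per bar, for the 40 cluster members (left) and the 8 rows of miR-371a to miR-373 (right, other scale). The cluster sums were 314 and 276 CPM in controls and 563 and 503 CPM after knockdown, while the neighbouring sums were 88.0 and 87.8 CPM in controls and 66.9 and 69.4 CPM after knockdown.

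Member by member, 27 of the 40 passed the filter on low counts (edgeR filterByExpr) and were tested with the other miRNAs. Of these, 17 were called higher after knockdown at a Benjamini-Hochberg adjusted p under 0.05 over all 464 tested miRNAs (edgeR quasi-likelihood test), beside 25.6% of all tested miRNAs called higher. Among the calls, 8 had a log2 fold change of 1 or more, beside 9.48% of all tested. No member was called lower, with 0 calls also in DESeq2 and 0 members with a fold change below 0 at an unadjusted p under 0.05, beside 25.2% of all tested called lower. Since the cluster was picked from this contrast, nothing is read from these counts. The number called higher was 6 with DESeq2 (47 of all 464 miRNAs), 5 without knockdown replicate 1 (49 of 502), 10 without knockdown replicate 2 (70 of 491) and 7 without control replicate 2 (48 of 507).

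The log2 fold changes of the 27 tested members ran from 0.14 to 1.96 with a median of 0.89, against a median of 0.06 over all tested miRNAs. Most of that range was of the order of the error of single members, since their SD was 0.40 and their median SE was 0.29. Of the 27, 3 reached the filter's cutoff in the knockdown libraries alone (miR-518a-3p, miR-520a-3p and miR-525-3p). The other 24 reached it in a control library too, and 16 of those 24 were called. The filter asks for 2 libraries, so those with a control under the cutoff also needed a knockdown library to pass. These were miR-516b-5p, miR-517c-3p, miR-520d-3p, miR-520d-5p and miR-520e, and the calls of miR-520d-3p and miR-520d-5p are among the 16. The tested members were low in level, at means of 2.91 to 41.7 CPM over the 4 libraries. The 209 other tested miRNAs within that range had a median of 0.23, with 53 called higher and 27 lower. The members were thus spread through the upper part of the ranking by fold change, from place 2 to place 207 of 464, with 8 among the 50 largest.

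All members with a read can be set beside each other without the filter. Both knockdown libraries lay above both controls in CPM for 28 of the 39 members with a read, beside 26.6% of all 1242 miRNAs with a read, and both lay below for 0 members. Of the 12 members with reads that were not tested, none of which had more than 13 reads in any library, 4 were among the 28. miR-512-5p was at 0 in all 4 libraries, although its other arm was among the most abundant members.

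**Figure D2:**
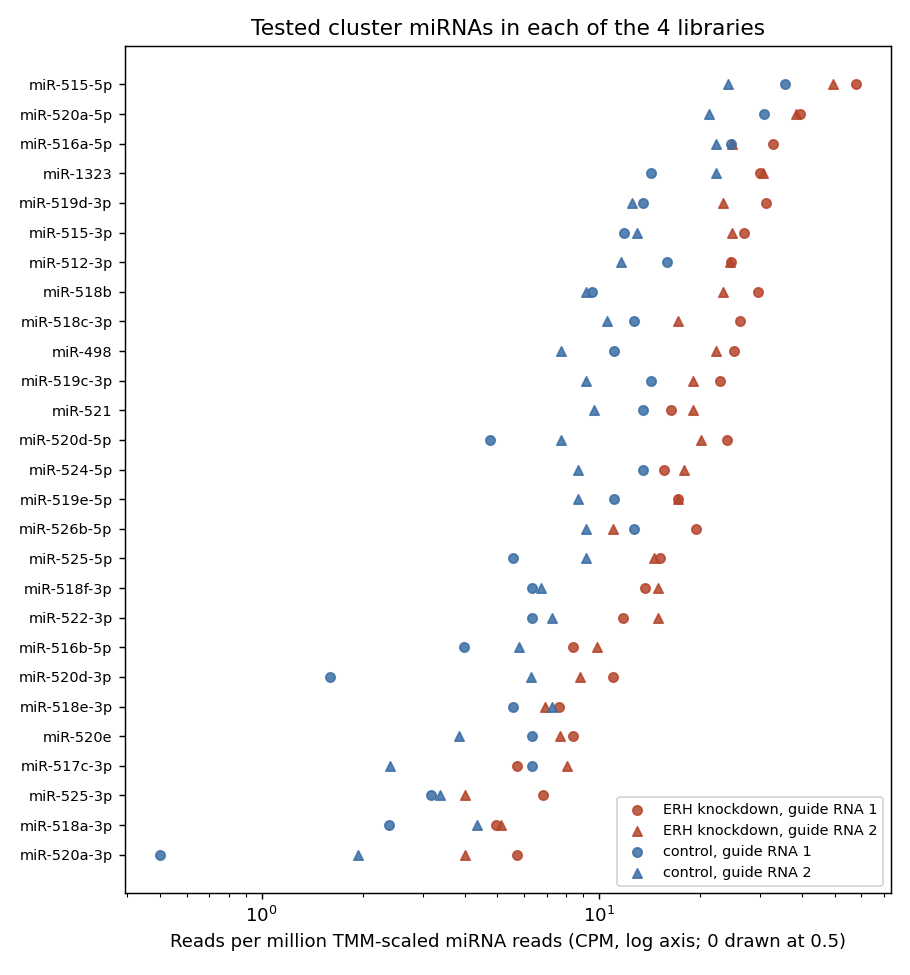
Level of each of the 27 tested members in each library, in CPM on a log axis, sorted by mean level, with knockdown in red, controls in blue, circles for guide RNA 1 and triangles for guide RNA 2. The red points lie to the right of both blue points for 24 of the 27, and miR-520a-3p has 0 reads in the control of guide RNA 1. Over all 1242 miRNAs with a read, a wider set than those tested, that order was found for 26.6%. The members were chosen with this contrast known, and nothing is read from the count.

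At the upstream end of the cluster, miR-512-3p, miR-1323 and miR-498 all rose. Read counts are given here and below for guide RNA 1 and then guide RNA 2. miR-512-3p, from hairpins 1 and 2, had 65 and 67 reads in knockdown libraries against 20 and 24 in controls. miR-1323, from the next hairpin (chr19:53671968-53672040, in no other GENCODE gene), had 79 and 84 reads against 18 and 46. Its control libraries differed, at 14.3 and 22.2 CPM, and both lay under both knockdown libraries. miR-498, whose hairpin is at chr19:53674197-53674320, had 66 and 61 reads against 14 and 16. Its log2 fold change was 1.39 ± 0.27 (SE), against 0.89 ± 0.24 for miR-512-3p and 0.66 ± 0.22 for miR-1323. The call of miR-498 held under every alternative run. That of miR-512-3p was lost with DESeq2 (0.82), without knockdown replicate 1 (0.87) and without control replicate 2 (0.61), and that of miR-1323 with DESeq2 (0.65) and without knockdown replicate 1 (0.67), knockdown replicate 2 (0.65) or control replicate 1 (0.44).

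The most abundant member was miR-515-5p, with 9.98% of all member reads, and both arms of miR-515 rose. They come from 2 hairpins, the 6th and 9th of the cluster, whose reads cannot be split. miR-515-5p had 152 and 135 reads in knockdown libraries against 45 and 50 in controls, and miR-515-3p had 71 and 68 against 15 and 27. The groups did not overlap for either arm, at 57.7 and 49.3 CPM against 35.7 and 24.1 for the 5p arm. The log2 fold changes were 0.90 ± 0.19 for the 5p arm and 1.04 ± 0.24 for the 3p arm (SE). The 3p call held under every alternative run, and the 5p call was lost without knockdown replicate 1 (0.77) or control replicate 2 (0.56). miR-519e-5p, named for the seed it shares with miR-515-5p and not by the rule for naming, had 45 and 47 reads against 14 and 18 and a fold change of 0.83 ± 0.28.

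The 2 rows known to have the AAGUGCU seed, miR-520a-3p and miR-520d-3p, had high fold changes on low counts. Both needed a knockdown library to pass the filter, miR-520a-3p passing in knockdown libraries alone. At such control counts, a row was tested only where its knockdown counts were high enough. miR-520a-3p had 15 and 11 reads in knockdown libraries against 0 and 4 in controls, a log2 fold change of 1.96 ± 0.67 (SE). The control of guide RNA 1 held no read of it. miR-520d-3p had 29 and 24 reads against 2 and 13, and 1.13 ± 0.43. Within guide RNA 1 their log2 ratios (prior count 2) were 2.85 and 2.25, and within guide RNA 2 they were 0.79 and 0.43. Neither call held with DESeq2 (2.08 and 1.18), without knockdown replicate 1 (1.68 and 0.94), without knockdown replicate 2 (2.19 and 1.28) or without control replicate 1 (1.30 and 0.64). That of miR-520a-3p was also lost without control replicate 2 (6.43, with the remaining control at 0), and that of miR-520d-3p with RLE size factors (1.08). miR-520e, another member of the number, had no sequence here from which to read its seed. It had 22 and 21 reads against 8 and 8 and stood at 0.73 ± 0.39, not called. It stood at 0.31 without control replicate 2 and was called with library size alone (1.17) and spike-in scaling (1.38).

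miR-519d-3p and miR-519c-3p, whose seeds are AAAGUGC and AAGUGCA, both rose. miR-519d-3p, the 5th most abundant member, had 82 and 64 reads in knockdown libraries against 17 and 26 in controls. Its levels of 31.2 and 23.4 CPM lay well above the controls at 13.5 and 12.5 CPM. miR-519c-3p had 60 and 52 reads against 18 and 19. The log2 fold changes were 1.07 ± 0.25 and 0.90 ± 0.28 (SE). Both calls were lost without knockdown replicate 1 (0.84 and 0.76) and without control replicate 2 (0.98 and 0.52), and that of miR-519c-3p with DESeq2 (0.82).

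The miR-518 members covered a wide range of fold changes. miR-518b, whose hairpin is the 19th at chr19:53702737-53702819, had 78 and 64 reads in knockdown libraries against 12 and 19 in controls, and rose by 1.5 ± 0.27 on the log2 scale (SE). The control libraries lay at 9.52 and 9.17 CPM and the knockdown libraries at 29.6 and 23.4 CPM. miR-518c-3p, with the same seed, had 69 and 47 reads against 16 and 22, and 0.92 ± 0.29. miR-518f-3p had 36 and 41 reads against 8 and 14, and 1.11 ± 0.31. miR-518a-3p, also with the AAAGCGC seed, had only 13 and 14 reads against 3 and 9 and stood at 0.48 ± 0.45, not called, with 0.20 without control replicate 1 and 1.04 without control replicate 2. miR-518e-3p showed the smallest fold change of the tested members, 0.14 ± 0.36, with 20 and 19 reads against 7 and 15. Its groups overlapped, and its ratio was above 0 within guide RNA 1 and below 0 within guide RNA 2 (log2 0.40 and -0.05). Its fold change was -0.002 without control replicate 1 and 0.36 without control replicate 2. The call of miR-518b held under every alternative run, that of miR-518f-3p was lost with DESeq2 (1.07) and without control replicate 2 (1.14), and that of miR-518c-3p with DESeq2 (0.86) and without knockdown replicate 1 (0.57), control replicate 1 (1.01) or control replicate 2 (0.74).

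The 5p arms with the UACAAAG seed had unequal fold changes. miR-520d-5p had 63 and 55 reads in knockdown libraries against 6 and 16 in controls, at 23.9 and 20.1 CPM against 4.76 and 7.72. Its log2 fold change of 1.73 ± 0.30 (SE) was the second highest of the cluster, and the call held under every alternative run. miR-524-5p, with the same seed and a similar level in knockdown (41 and 49 reads), had 17 and 18 reads in controls and 0.67 ± 0.29, not called. It was called with a mean of at least 10 CPM (0.71), without control replicate 1 (0.94), with library size alone (1.11) and with spike-in scaling (1.33), and stood at 0.29 without control replicate 2. The difference between them was not tested.

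miR-520a-5p was the second most abundant member, with 104 and 105 reads in knockdown libraries against 39 and 44 in controls. Its levels of 39.5 and 38.3 CPM lay above the controls at 30.9 and 21.2 CPM. miR-525-5p, with the same seed, had 40 and 40 reads against 7 and 19. Both rose, by 0.64 ± 0.20 and 0.93 ± 0.31 on the log2 scale (SE). Both calls were lost with DESeq2 (0.56 and 0.92) and without knockdown replicate 1 (0.60 and 0.89) or knockdown replicate 2 (0.65 and 0.95), that of miR-520a-5p also without control replicate 2 (0.31) and that of miR-525-5p without control replicate 1 (0.69). Between their hairpins lies that of miR-526b-5p, with 51 and 30 reads against 16 and 19, which stood at 0.52 ± 0.34 and was not called. Its value rested on single libraries, at 0.048 without knockdown replicate 1, 0.87 without knockdown replicate 2 and 0.23 without control replicate 2, and it was called with library size alone (0.96) and spike-in scaling (1.15). miR-525-3p, the other arm of miR-525, had 18 and 11 reads against 4 and 7 and stood at 0.70 ± 0.47, not called, with 0.27 without knockdown replicate 1 and a call at 1.14 with library size alone.

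Toward the downstream end, the abundant miR-516a-5p had a small fold change. It had 86 and 68 reads in knockdown libraries against 31 and 46 in controls, which is 32.7 and 24.8 CPM against 24.6 and 22.2 CPM. The log2 fold change was 0.31 ± 0.21 (SE), not called, and its 2 hairpins are the 43rd and 45th of the cluster. It stood at 0.089 without knockdown replicate 1, 0.49 without knockdown replicate 2 and 0.20 without control replicate 2, and was called with library size alone (0.76) and spike-in scaling (0.97). Near them, miR-522-3p had 31 and 41 reads against 8 and 15 and rose by 0.95 ± 0.32, a call lost with DESeq2 (0.92) and without any 1 library (1.10, 0.76, 0.88 and 1.05). miR-521, from hairpins 26 and 39, had 43 and 52 reads against 17 and 20 and 0.67 ± 0.28, not called (edgeR adjusted p = 0.055). It was called with a mean of at least 10 CPM (0.71), without control replicate 1 (0.86), with library size alone (1.11) and with spike-in scaling (1.33), and stood at 0.37 without control replicate 2.

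Summed by miRNA number, 15 of the 16 numbers were higher after knockdown within both guide RNAs. The exception was miR-523, a single row with 8 and 9 reads in knockdown libraries against 4 and 2. Among sums of at least 50 reads in each knockdown library, the mean log2 ratio was largest for miR-498 (1.35 ± 0.25, SD, n = 2 guide RNAs). It was 0.98 ± 0.01 for miR-520 (8 rows), 0.97 ± 0.23 for miR-518 (7 rows), 0.92 ± 0.14 for miR-519 (5 rows) and 0.91 ± 0.12 for miR-515 (2 rows). The smallest was that of miR-516, at 0.42 ± 0.15 from 108 and 95 reads against 36 and 58. The sums of miR-512, miR-525 and miR-1323 lay at 0.86, 0.95 and 0.77, and no difference between numbers was tested.

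**Figure D3:**
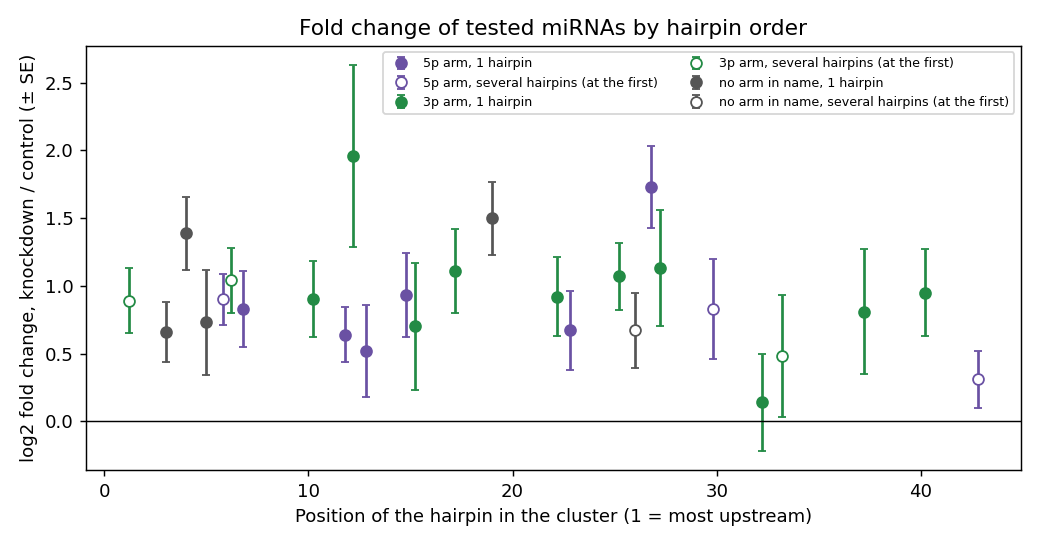
Log2 fold change of knockdown over control with its SE (edgeR) for each tested member, by the order of its hairpin from 1 (upstream) to 46, with colours for the arm and open points for members made by several hairpins, drawn at the first. All 27 points lie above 0, from 0.14 (miR-518e-3p) to 1.96 (miR-520a-3p), with a Spearman correlation of 0.13 between fold change and hairpin start over 20 members of 1 hairpin.

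By arm, both sums were higher after knockdown with each guide RNA. The 19 rows with a 3p name had 565 and 521 reads in knockdown libraries against 138 and 216 in controls, a mean log2 ratio of 0.92 ± 0.07. The 15 rows with a 5p name had 620 and 565 against 186 and 243, and 0.75 ± 0.10 (SD, n = 2 guide RNAs). Another 6 rows, with no arm in the name, had 297 and 293 against 72 and 113, and 0.98 ± 0.01. The ratio of arms within a library needs no scaling. For miR-515 there were 2.14 and 1.99 reads of the 5p arm per read of the 3p arm after knockdown and 3.0 and 1.85 in controls. For miR-520d the ratios were 2.17 and 2.29 against 3.0 and 1.23, and for miR-525 they were 2.22 and 3.64 against 1.75 and 2.71. In each of these 3 hairpin families the groups overlapped. Within the lines, the ratio of miR-525 was higher after knockdown with both guide RNAs, and those of miR-515 and miR-520d were lower with guide RNA 1 and higher with guide RNA 2. Arm use was not tested. miR-520a kept mostly its 5p arm, with 6.93 and 9.55 reads of it per read of the other after knockdown, 11.0 in the control of guide RNA 2 and no 3p read in that of guide RNA 1.

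Along the cluster, members of 1 hairpin were summed in 3 stretches of equal length. The upstream stretch (15 members, 535 and 496 reads against 149 and 214) had a mean log2 ratio of 0.80 ± 0.02. The middle stretch (12 members, 428 and 375 against 88 and 144) had 1.10 ± 0.17, and the downstream stretch, with only 3 members, 0.79 ± 0.53 (SD, n = 2 guide RNAs). Over the 20 tested members of 1 hairpin, the fold change had a Spearman correlation of 0.13 with the start of the hairpin and of 0.12 with the gap to the nearest hairpin. For 19 of them the fold energy of the hairpin per length (RNAfold) gave 0.32, with higher values for weaker folding. These are descriptions across members of the same 4 libraries. The hairpins lay a median of 1153 bases from the nearest other, from 738 to 3160, and folded at a median of -48.8 kcal/mol per 100 bases against -45.2 over all 1560 RefSeq hairpins.

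Within each guide RNA, the members' ratios differed little more than counting noise allows. The chi-square per degree of freedom of member counts in knockdown against control was 1.36 with guide RNA 1 (23 members with at least 5 expected reads) and 1.08 with guide RNA 2 (26 members). A value of 1 is what one common ratio and counting noise would give. The median log2 ratio of the tested members was 0.83 with guide RNA 1 and 0.85 with guide RNA 2. The ratio was above 0 within both for 25 of the 27. The other members were miR-518e-3p and miR-517c-3p, the latter with 15 and 22 reads against 8 and 5.

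**Figure D4:**
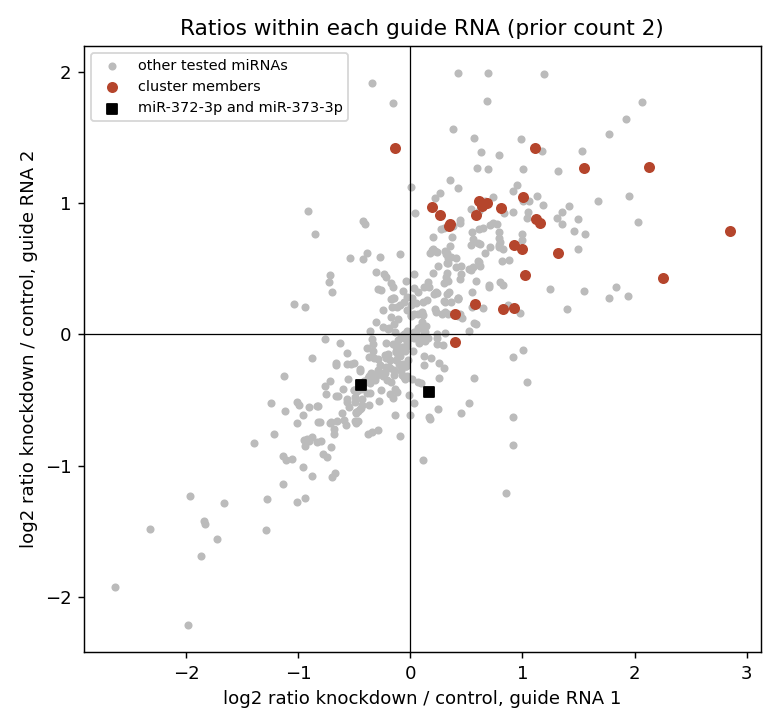
Log2 ratio of knockdown to control within guide RNA 1 (horizontal) and guide RNA 2 (vertical), with a prior count of 2, for the 464 tested miRNAs, with cluster members in red and miR-372-3p and miR-373-3p as black squares. Of the 27 red points, 25 lie in the upper right field, where both ratios are above 0, while miR-373-3p lies at -0.44 and -0.39. The share of all 464 in that field is not given, so nothing is read from the members' count. The 2 ratios had a Pearson correlation of 0.73 over all 464.

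The neighbouring cluster of miR-371a, miR-372 and miR-373 begins 25.2 kb downstream on the same strand and stood lower after knockdown relative to the bulk of miRNAs. miR-373-3p, which has the seed of miR-520a-3p and miR-520d-3p, had 152 and 161 reads in knockdown libraries against 99 and 160 in controls. At 57.7 and 58.8 CPM after knockdown against 78.5 and 77.2 CPM in controls, its groups did not overlap, and it fell by 0.42 ± 0.13 on the log2 scale relative to the bulk of miRNAs (SE, edgeR adjusted p = 0.016). That call was lost with DESeq2 (-0.47), without knockdown replicate 1 (-0.42), knockdown replicate 2 (-0.43) or control replicate 2 (-0.45), and the fold change turned to 0.03 with library size alone and 0.27 with spike-in scaling. miR-372-3p had 12 and 13 reads against 5 and 14 and stood at -0.29 ± 0.41, not called. The 8 rows of this cluster summed to 66.9 and 69.4 CPM after knockdown and 88.0 and 87.8 CPM in controls, the opposite order to the members of the larger cluster. That order also turned with library size alone (mean log2 ratio 0.07) and with spike-in scaling (0.32), where the members' sum still stood higher, at 1.29 and 1.55. The difference between the clusters was not tested.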

How the data were processed

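The deposited values are raw read counts per mature miRNA, 1 whole number per row and library, with 2366 human miRNA rows and 2 spike-in rows by their names. Per the labels, the RNA was TRIzol-extracted and gel-purified. Trimming, the aligner, the miRNA annotation, the build and the handling of reads that fit several miRNAs: none is given in the sources used here. The guide RNA number pairs the libraries by design, since each number is 1 line, although the deviations of equal numbers from their group means had a correlation of -0.11. The counts of both knockdown libraries and of both controls parted beyond counting noise (chi-square over its degrees of freedom 3.93 and 10.1), and each was counted as its own sample. With 1 culture per line and condition, a p-value covers the spread between cultures of different lines only.

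Human miRNA counts went through edgeR 4.0.16 (R 4.3.3): filterByExpr with a minimum count of 10 and a minimum total of 15 left 464 miRNAs, which were TMM-scaled and fitted with the quasi-likelihood test without a block, adjusted over all 464. Log2 ratios within a guide RNA used a prior count of 2, and sums none. Hairpins came from GENCODE 29, mature sequences from RefSeq, fold energies from RNAfold 2.7.2 and plots from matplotlib 3.10.9. Named members are the 12 of highest mean CPM and, among the other tested ones, the 6 with the largest and 6 with the smallest fold change. The members and lists were chosen with earlier results of these data known. Alternatives were a replicate block, DESeq2 1.42.0, other scalings and filters, and leaving out the most abundant miRNA or each library.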

Additional observations from a re-analysis of the deposited data

Results flagged for a closer look

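miR-518e-3p was singled out because its log2 ratio of knockdown to control was above 0 with guide RNA 1 (0.40) and below 0 with guide RNA 2 (-0.05). Each ratio rests on 1 library per condition with 7 to 20 reads, and the difference between the guide RNAs was not tested.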

How the results depend on the processing

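The count of members called higher was 17 of 27 tested, when 119 of all 464 miRNAs were called higher. It was also 17 of 27 with the replicate block (116 of all 464) and without the most abundant miRNA (119 of 463). The same count came from other numbers tested without a filter (17 of 39, and 126 of all 1242). With a mean of at least 10 CPM it was 17 of 19 (110 of all 360). Of 27 tested, it was 16 with RLE size factors (108 of all 464), 25 with library size alone (273), 24 with spike-in scaling (186) and 6 with DESeq2 (47). Fits without 1 library leave a single library in a group, so nothing is read from their counts. They gave 5 to 13 of the 28 to 30 members then tested, with fewer of all miRNAs called higher too. The count called lower was 0 under each of these. As the pairing correlation was below -0.1, a crossed pairing of the guide RNA numbers was added after seeing the data. It called 17 members higher and 0 lower, and 123 and 118 of all 464 miRNAs. The mean log2 ratio of the summed count, 0.85, was 0.80 with RLE size factors, 1.29 with library size alone, 1.55 with spike-in scaling and 0.76 to 0.95 without 1 library. No mature sequence is shared among the 36 members with one in RefSeq, so counting shared sequences once left the sum as it was; the other 4 could not be checked. Of 282 fold changes of the 24 named members under the alternatives, 223 kept their direction and side of the threshold, 43 lost the call, 15 gained it and 1 turned, that of miR-518e-3p without control replicate 1 (-0.002, and up to 0.36 without control replicate 2). The cause of these changes was not tested. With 0 to 50 reads of each named member in a control library, depth limits what single members can show.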
